A study of Mus musculus with 26 samples.

Results

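Alveolar macrophages and CD11b dendritic cells (DCs) of the wild-type mouse lung were compared at steady state, with 3 RNA-seq libraries of each cell type taken from a table of 26 libraries. The series profiled antigen-presenting cells of the lung and spleen, sorted by flow cytometry, in mTORΔAPC mice, here called KO, and in their wild-type littermates. Both groups used here came from untreated littermates labelled wild type, and neither received the house dust mite extract given to other mice of the series. The first group is labelled alveolar macrophage and the second CD11b+ DCs purified by FACS. Strain, age, the macrophage gate, whether the littermates carried floxed alleles and whether libraries came from separate or pooled mice are not given in the sources used here. Below, p-values therefore measure the spread between these libraries, which may be technical. KO libraries of the same cell types, 3 of each, share no library with this comparison and are used near the end as a second measurement.

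Alveolar macrophages live on the air side of the alveolus, where they take up surfactant lipid and inhaled particles. They depend on GM-CSF and on the nuclear receptor PPARγ, and they divide locally. CD11b DCs of the lung tissue, also called cDC2, take up antigen, load it onto MHC class II molecules and carry it to the lymph node along gradients read by the chemokine receptor CCR7. Lung CD11b sorts can also hold monocyte-derived cells and interstitial macrophages, which share CD11b and part of the DC surface phenotype.

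The values are normalized counts, which are reads per gene divided by the size factor of the library. The 6 libraries held 8.797 to 11.48 M reads. Testing was limited to the 12098 genes with 10 or more normalized counts in 2 or more of the 6 libraries. Differences are given on the scale log2(normalized count + 1), macrophage minus DC, with the moderated standard error from limma; for genes near 0 the size of the difference depends on the added 1. A gene was called when its Benjamini-Hochberg adjusted p over all tested genes was under 0.05. The macrophage libraries were alike, with a median SD between libraries of 0.119 on the log2 scale, against 0.254 among the DC libraries. DC replicate 3 stood apart: it had 13173 genes above 0 against 14407 and 14035 in the other DC libraries, and 353 genes were more than 4-fold below both of them. Counts of calls without it are therefore also given for some gene lists below; leaving it out also moved lists for which they are not given. All 6 libraries had Xist and almost no reads of Y-linked genes (a sum of at most 2.284), so sex did not go with cell type. Mtor, the gene deleted in the KO mice, was at 387, 332 and 361 in macrophages and 476, 364 and 397 in DCs, and the groups overlapped (-0.19 ± 0.13, adjusted p = 0.268).

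The cell types differed in most of their measured transcriptome. Of 12098 genes, 6617 were called (54.7%), 3183 higher in alveolar macrophages (26.3%) and 3434 higher in DCs (28.4%). The larger differences lay more often on the DC side. A difference of over 4-fold was called for 733 genes on the macrophage side (6.06%) and 1389 on the DC side (11.5%). A test against a 2-fold threshold (limma treat) passed 884 genes higher in macrophages (7.31%) and 1410 higher in DCs (11.7%). The libraries of one cell type were all above those of the other for 7684 genes (63.5%). The median difference over all tested genes was 0.02. The first principal component of the 6 libraries separated the cell types and held 85.2% of the variance, and the second, with 8.56%, separated DC replicate 3 from the other DC libraries. In a simulation, 46.4% of 2-fold changes and 78.6% of 4-fold changes were recovered among 12098 genes. It took the levels and spread of the 3 DC libraries for both groups and changed only 200 genes. Its recovery is therefore not that of this comparison. Since real changes can be missed, a gene that was not called is not shown to be equal. In the plot of group means, the genes highest in alveolar macrophages and those highest in DCs lie far from the diagonal.

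**Figure D1:**
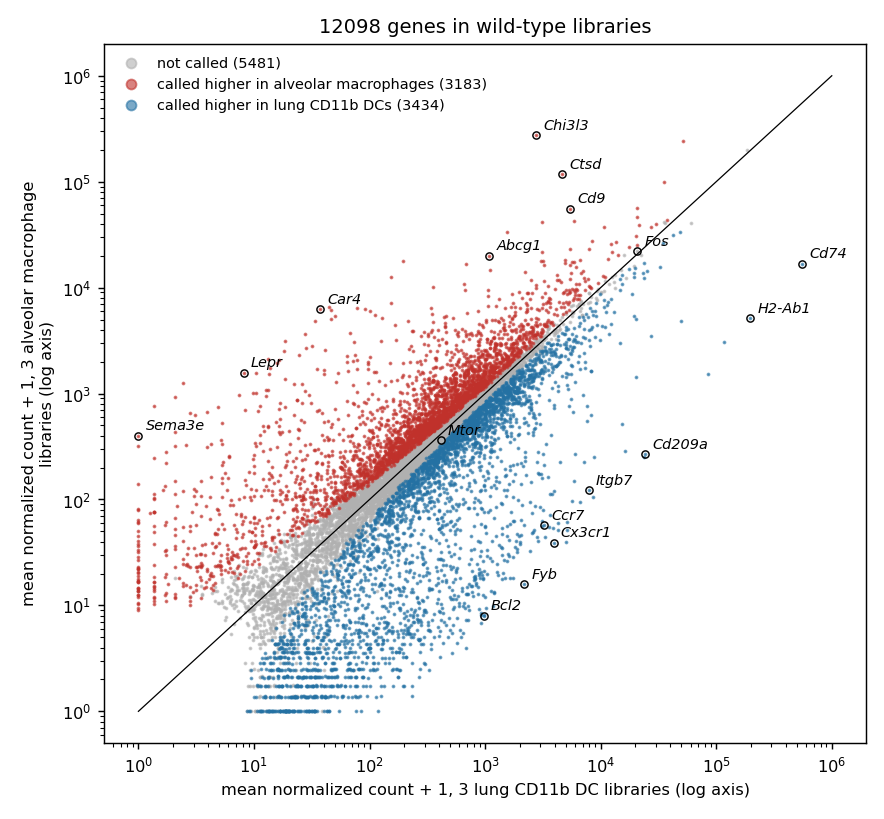
Mean normalized count + 1 of each of 12098 genes in 3 lung CD11b DC libraries (x, log axis) and 3 alveolar macrophage libraries (y, log axis); colours mark the 3183 genes called higher in macrophages and the 3434 called higher in DCs, and the line marks equal means. Chi3l3 and Ctsd lie far above the line, and Cd74 and H2-Ab1 far below it at the right.

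The markers of each cell type went with the labels. Marker and function lists were chosen with earlier results of these data known, so their counts here and below are descriptions and not independent support. Of 29 measured alveolar macrophage markers, 28 were higher in the macrophage libraries (96.6% against 26.3% of all genes) and 1, Bhlhe40, was lower. Their median log2 difference was 5.34. Siglec5, the symbol the table uses for the sialic acid lectin Siglec-F, was at 7323, 6979 and 7290.1 in macrophages and 204, 213 and 40.3 in DCs (5.89 ± 0.55, adjusted p = 3.33e-05). Marco, a scavenger receptor for unopsonized particles, was at 2444, 2670.1 and 2603 in macrophages and 55.2, 45.5 and 19.3 in DCs (6.10 ± 0.33, adjusted p = 1.46e-06). Chi3l3, which encodes the secreted chitinase-like protein Ym1 and lies on chromosome 3 at 106147554 to 106167564 of GRCm38, reached 274840, 277960 and 267930 in macrophages and 3325, 3817 and 1083 in DCs (6.83 ± 0.41, adjusted p = 2.33e-06). In all 3 genes the macrophage libraries sat close together, far above every DC library, and DC replicate 3 had the lowest value. Per kilobase of merged exons, Chi3l3 was the second most abundant transcript of the macrophages, after the lysozyme gene Lyz2, and ranked 218 in the DCs. Reads of Chi3l3 and Chi3l4, which are near copies, may be shared.

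PPARγ and the GM-CSF receptor genes differed by unequal amounts. Pparg was at 2911, 3114 and 3023 in macrophages and 466, 399.7 and 522 in DCs, a log2 difference of 2.71 ± 0.11 (adjusted p = 2.35e-07). Csf2rb, the signalling chain of the GM-CSF receptor, was at 6520.4, 6751 and 6520.3 in macrophages and 3817, 3435 and 3703 in DCs (0.85 ± 0.07, adjusted p = 1.40e-05). Csf2ra, the ligand-binding chain, differed least, with 5985, 5866 and 5962 in macrophages and 5047, 5426 and 4594 in DCs (0.24 ± 0.08, adjusted p = 0.0264). The groups did not overlap in any of the 3 genes, but the Csf2ra call was lost when any one macrophage library or DC replicate 1 was left out (adjusted p = 0.05 to 0.0895). Itgax, which encodes CD11c, was high in both cell types, with 9726, 9498 and 9374 in macrophages and 6281, 6628 and 4873 in DCs (0.70 ± 0.11, adjusted p = 0.000913). The adipocyte-type fatty acid carrier Fabp4 was at 634, 662 and 579 in macrophages and 193, 119 and 281 in DCs (1.74 ± 0.27, adjusted p = 0.000737), and here DC replicate 3 was the highest of the DC libraries. Bhlhe41, a repressor known in alveolar macrophages, was at 905, 836 and 892 in macrophages and 29.2, 28.5 and 10.5 in DCs (5.34 ± 0.36, adjusted p = 4.62e-06), whereas its relative Bhlhe40 was higher in DCs, at 7347, 7754 and 6946 in macrophages and 13946, 11475 and 9230.4 in DCs (-0.63 ± 0.14, adjusted p = 0.00458).

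DC genes showed the mirror image. Of 17 conventional DC markers 16 were higher in DCs (94.1% against 28.4% of all genes) and 1, Ffar2, was higher in macrophages (median -5.42). Of 17 cDC2 markers 15 were higher in DCs (88.2%), 1 (Sirpa) was higher in macrophages and 1 was not called (median -5.10). Flt3, the receptor on which DC development depends, was at 48.0, 49.7 and 55.3 in macrophages and 3066, 3053 and 1844 in DCs (-5.64 ± 0.20, adjusted p = 1.49e-07). Zbtb46, a transcription factor largely restricted to conventional DCs, was at 28.6, 21.0 and 35.8 in macrophages and 1153, 1233 and 713 in DCs (-5.13 ± 0.27, adjusted p = 1.13e-06). Irf4, required for the function of CD11b DCs, was at 45.7, 40.8 and 46.6 in macrophages and 1792, 1364 and 1524 in DCs (-5.10 ± 0.15, adjusted p = 5.46e-08). Every DC library lay more than 10-fold above every macrophage library for these genes. The DC lectin genes were far more abundant. Cd209a, a DC-SIGN relative on chromosome 8 at 3743397 to 3748984, was at 337, 239.5 and 221 in macrophages and 26777, 24081 and 21723 in DCs (-6.52 ± 0.16, adjusted p = 3.14e-08). Mgl2, a galactose-binding lectin on chromosome 11 at 70130329 to 70137550, was at 288, 192 and 273 in macrophages and 24794, 22741 and 23929 in DCs (-6.58 ± 0.14, adjusted p = 2.50e-08). Per kilobase, Cd209a ranked 13 and Mgl2 ranked 19 in DCs, against 2720 and 3615 in macrophages. Sirpa, often used to mark cDC2, was higher in macrophages, at 27797, 27725 and 27962 in macrophages and 8546, 8720 and 8218 in DCs (1.71 ± 0.06, adjusted p = 1.90e-07). CD11b itself, the product of Itgam and the marker by which the DCs were sorted, was at 102, 55.2 and 129 in macrophages and 5931, 5533 and 5379 in DCs. Because the sort used it, this difference is given as a description.

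**Figure D2:**
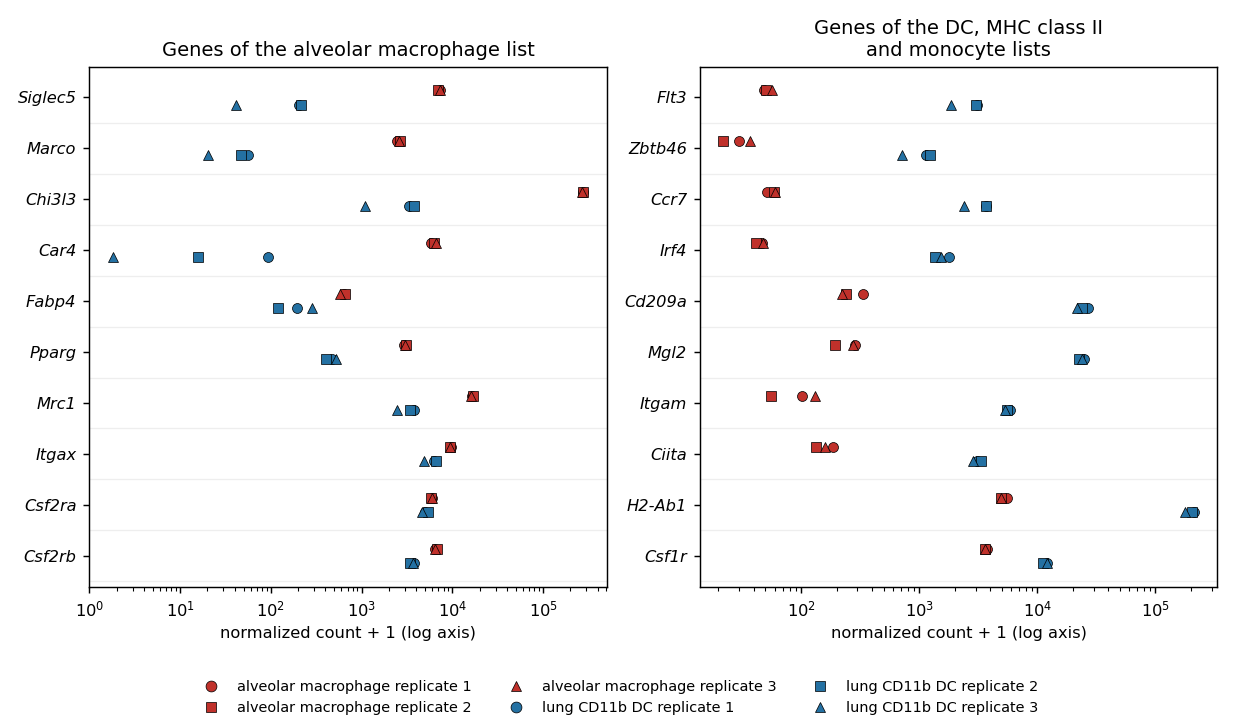
Normalized count + 1 (log axis) of 20 genes in each of the 6 wild-type libraries; red symbols are alveolar macrophages, blue symbols lung CD11b DCs, and the shape gives the replicate. In the left panel all macrophage libraries lie right of all DC libraries, narrowly so for Csf2ra, and in the right panel the order is reversed.

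Markers of other cells were measured in the same way. Of 22 genes known in monocytes and interstitial macrophages, 16 were higher in DCs (72.7% against 28.4% of all genes), 5 in alveolar macrophages (22.7%, near the 26.3% of all genes) and 1 was not called (median -4.01). Cx3cr1, the fractalkine receptor, was at 42.3, 35.3 and 36.9 in macrophages and 3115, 3820.2 and 4797 in DCs (-6.62 ± 0.17, adjusted p = 3.47e-08). C1qb, a chain of complement C1q, was at 62.8, 55.2 and 62.9 in macrophages and 5803, 5466 and 4206 in DCs (-6.38 ± 0.14, adjusted p = 2.50e-08). Plac8, known in monocytes, was at 9.14, 11.0 and 5.42 in macrophages and 834, 763 and 1432 in DCs (-6.72 ± 0.33, adjusted p = 7.49e-07). These genes were at low levels in all 3 macrophage libraries and high in all 3 DC libraries. Mertk, an efferocytosis kinase also used to mark macrophages, went the other way, with 5314, 5285 and 4836 in macrophages and 204, 112 and 64.5 in DCs (5.48 ± 0.34, adjusted p = 3.03e-06). In bulk libraries, fewer cells of a type and less RNA per cell cannot be told apart, so the monocyte and macrophage genes of the DC libraries may come from all of the sorted cells or from some of them.

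Lymphocyte markers were low but higher in the DC libraries. All T cell markers tested except Cd2 were higher there (9 of 10, 90% against 28.4% of all genes), as were 7 of 9 B cell (77.8%) and 4 of 4 NK cell markers. Of 10 NK cell markers, 6 were below the filter and not tested. Markers near 0 in macrophages could pass the filter only through the DC libraries and so could not come out higher in macrophages. These counts are therefore no test of direction. The median level of the T cell list was 1.104 to 2.28 per macrophage library and 55.3 to 126.6 per DC library, with the highest value in DC replicate 3, and that of the B cell list was 2.17 to 2.28 and 70.3 to 125.8. Cd4, the coreceptor of helper T cells, was at 2.28, 0 and 2.17 in macrophages and 156, 149 and 198 in DCs. Cd2, best known from T cells, was instead higher in macrophages, at 3788, 3945 and 3890.1 in macrophages and 262, 203 and 229.8 in DCs (4.07 ± 0.11, adjusted p = 3.75e-08). So was Cd22, a B cell lectin, at 1926, 1785 and 1999 in macrophages and 259, 316 and 261 in DCs (2.77 ± 0.11, adjusted p = 2.31e-07). Lung epithelial genes were uneven among DC libraries. Sftpc, which encodes surfactant protein C of the alveolar epithelium, was at 48.0, 69.5 and 44.5 in macrophages and 2088, 852 and 66.1 in DCs, with an overlap between the groups and a call that was lost when any one of 5 libraries was left out (largest adjusted p = 0.107). Vwf and the other endothelial and stromal markers counted 1 of 11 higher in macrophages (9.09% against 26.3% of all genes), 8 higher in DCs (72.7% against 28.4%) and 2 not called. Without DC replicate 3 the counts were 0, 10 and 1. The summed level was 448.2 to 539.9 per macrophage library and 790.8 to 932.8 per DC library. Vwf, the 1 gene higher in macrophages, made up most of the macrophage sum. The median level of the list was 0 to 1.084 per macrophage library and 17.74 to 28.55 per DC library. The 12 eosinophil, basophil and mast cell markers summed to at most 24.9 in any library. Whether cells other than DCs contributed to the differences below was not tested.

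In the other cell type, most identity genes were at a few percent of the level in their own. Among the 28 markers called higher in alveolar macrophages, the DC mean was 2.35% of the macrophage mean at the median (range 0.58 to 84.6%). Among the 16 conventional DC markers called higher in DCs, the macrophage mean was 2.01% of the DC mean at the median (range 1.05 to 26.5%). Over all genes called with more than 4-fold differences, the medians were 10.6% on the macrophage side and 4.55% on the DC side. Several macrophage genes varied together among the DC libraries. Car4, a membrane carbonic anhydrase, was at 5844, 6282 and 6627 in macrophages and 93.2, 14.8 and 0.806 in DCs, and Krt79, a keratin, at 4902, 4701 and 4949 in macrophages and 68.2, 27.5 and 1.61 in DCs. In both genes DC replicate 1 was the highest and DC replicate 3 the lowest DC library, and Sftpc followed the same order. Of the 353 genes that were more than 4-fold below both others in DC replicate 3, 92 were called higher in macrophages, 30 higher in DCs and 231 were not called. Over all tested genes, 26.3% were called higher in macrophages and 28.4% higher in DCs, so 92 of 353 was near the macrophage share of all genes. Of the 29 macrophage markers, 4 were among the 353. The part of these library differences in the results was not tested. Without DC replicate 3 the counts were 28 of 29 for the macrophage markers and 16 of 17 for the conventional DC markers, as before.

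The 15 largest differences on the macrophage side, among genes with no overlap and a mean of at least 100, were those of Hspa12a, Vstm2a, Ucp3, Car4, Sema3e, Mak, Mfsd7c, Lepr, Prom1, Pdk4, Angptl4, Krt79, Kcnn3, Perp and Mcam. Hspa12a, an atypical member of the heat-shock protein 70 family, led with 1199, 1284 and 1276 in macrophages and 4.33, 0 and 0 in DCs (9.49 ± 0.61, adjusted p = 3.79e-06). Ucp3, a mitochondrial uncoupling protein best known from muscle, was at 946, 899.6 and 949.8 in macrophages and 0, 3.17 and 0 in DCs (9.18 ± 0.55, adjusted p = 2.34e-06). Lepr, the leptin receptor, was at 1626, 1656 and 1416 in macrophages and 15.2, 6.34 and 0 in DCs (8.31 ± 0.85, adjusted p = 6.15e-05). The macrophage libraries lay close together in these 3 genes, and no DC library was above 15.2. Angptl4, an inhibitor of lipoprotein lipase and a known target of PPAR receptors, was at 2092, 2132 and 2059 in macrophages and 37.9, 8.46 and 0 in DCs (8.19 ± 1.08, adjusted p = 0.000278). Kcnn3, a calcium-activated potassium channel, was at 812, 758 and 677 in macrophages and 10.8, 0 and 0.806 in DCs (8.07 ± 0.79, adjusted p = 4.51e-05). DC replicate 1 was the highest DC library for both.

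Some genes had no read in 1 of the groups. Among tested genes, 42 were at 0 in all DC libraries and 105 in all macrophage libraries. Sema3e, a secreted guidance protein on chromosome 5 at 14025276 to 14256689, had 1080 reads over the 3 macrophage libraries and none in DCs, at least 406-fold higher against a floor of 3 reads over the group. Pdk4, the kinase that shuts pyruvate dehydrogenase when fatty acids are burned, was at least 324-fold higher, with 361, 257 and 337 in macrophages and 0, 0 and 0 in DCs. Bok, a BCL2 relative, was at least 81.9-fold higher. In the other direction Rai14, an actin-associated protein, had 355 reads in DCs and none in macrophages, at least 106-fold lower in macrophages, followed by Anxa8 (at least 74.6-fold) and Bahcc1 (at least 68.5-fold). These floors cover counting error only.

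On the DC side the largest differences included those of Arhgef10l, Tmem26, Ifitm6, Pglyrp1, Mefv, Rasgrp1, S1pr5, B4galt6, Fyb, Tnfsf8, Depdc7, Satb1, Rap1gap2 and Abca6. Arhgef10l, a guanine nucleotide exchange factor, was at 10.3, 0 and 0 in macrophages and 531, 551 and 613 in DCs (-7.98 ± 0.86, adjusted p = 7.96e-05). Mefv, which encodes pyrin, an inflammasome sensor of myeloid cells, was at 3.43, 3.31 and 0 in macrophages and 466, 352 and 401 in DCs (-7.24 ± 0.57, adjusted p = 1.24e-05). Fyb, an adaptor linking receptor signals to the actin skeleton, was at 13.7, 14.3 and 16.3 in macrophages and 1877, 1880 and 2769.9 in DCs (-7.09 ± 0.19, adjusted p = 4.60e-08). All DC libraries were above 300 and all macrophage libraries under 20 for these genes. Rasgrp1 and Satb1 are well known from T cells. Rasgrp1 was at 12.6, 2.21 and 11.9 in macrophages and 1185, 1226 and 1103 in DCs (-7.15 ± 0.51, adjusted p = 6.68e-06), and Satb1 was at 0, 2.21 and 1.08 in macrophages and 154, 273 and 370.0 in DCs. Ifitm6 (3.43, 2.21 and 3.25 in macrophages and 546, 499 and 996 in DCs) and Pglyrp1 (4.57, 0 and 7.59 in macrophages and 438, 430.3 and 984 in DCs), both known from monocytes and neutrophils, were highest in DC replicate 3.

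Genes of presentation on MHC class II were far higher in the DCs. Class II molecules are αβ pairs that leave the endoplasmic reticulum with the invariant chain CD74 and exchange its fragment for antigen peptide with the help of H2-DM, while H2-O restrains that exchange. CIITA is the coactivator that switches these genes on together. Of 18 genes of the list, 15 were higher in DCs (83.3% against 28.4% of all genes) and 1 (Rfxank) was not called. The other 2, Ctsl and Ctss, were higher in macrophages (11.1% against 26.3%). The median was -3.20 against 0.02 over all genes. The same counts held without DC replicate 3. Cd74 was the most abundant transcript of the DCs per kilobase and ranked 19 in macrophages. It was at 17312, 16529 and 16380 in macrophages and 589030, 558710 and 519080 in DCs (-5.05 ± 0.09, adjusted p = 9.99e-09). H2-Ab1, the β chain of I-A on chromosome 17 at 34257689 to 34269419, was at 5572, 4959 and 4923 in macrophages and 212010, 202340 and 178350 in DCs (-5.26 ± 0.09, adjusted p = 9.99e-09). H2-Eb1, the β chain of I-E, was at 1648, 1350 and 1557 in macrophages and 90972, 83542 and 78882 in DCs (-5.80 ± 0.09, adjusted p = 9.99e-09). The 3 genes were highest in DC replicate 1 and lowest in DC replicate 3, and every DC library exceeded every macrophage library by more than 10-fold. H2-Eb2 and H2-Ob differed by a similar factor at lower levels. H2-Eb2 was at 1.14, 2.21 and 3.25 in macrophages and 218, 166 and 94.3 in DCs (-5.62 ± 0.45, adjusted p = 1.41e-05), and H2-Ob, the β chain of H2-O, at 41.1, 28.7 and 23.9 in macrophages and 2179, 1878 and 1569 in DCs (-5.89 ± 0.22, adjusted p = 1.74e-07). Ciita, on chromosome 16 at 10480059 to 10528418, was at 184, 132 and 157 in macrophages and 3110.3, 3357 and 2845 in DCs (-4.30 ± 0.13, adjusted p = 8.03e-08).

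Although macrophages were far below DCs in class II, they were not at zero. H2-Aa, the α chain of I-A, was at 3202, 3017 and 3000 in macrophages and 128720, 118320 and 104680 in DCs (-5.25 ± 0.09, adjusted p = 9.99e-09). Over the 15 class II list genes called higher in DCs, the macrophage mean was 5.09% of the DC mean at the median (range 1.38 to 67.5%). The proteases of the pathway went the other way. Ctss, cathepsin S, which cuts the invariant chain in DCs, was at 38710, 39353 and 39123 in macrophages and 21944, 20633 and 22423 in DCs (0.85 ± 0.07, adjusted p = 1.71e-05). Ctsl, cathepsin L, was at 2553, 2563 and 2481 in macrophages and 388, 331 and 423 in DCs (2.74 ± 0.10, adjusted p = 1.90e-07). The groups did not overlap for either protease.

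Class II promoters share a set of short elements, one of which is the Y box bound by NF-Y. RefSeq's promoters on GRCm38.p6 (250 bases before to 50 after the start) were found for 9743 tested genes, and the letters CTGATTGG were searched on both strands. They were in 4 of the 17 promoters of the class II list (23.5%) and in 5.52% of all 12360 promoters of tested genes. Their share was 3.25% among genes over 4-fold higher in macrophages and 3.56% among those over 4-fold higher in DCs. A match is a description of letters, not a bound site. The 150 bases before the start of 3 of these genes are shown because they place the same letters at different distances from genes that differed by a similar amount. Capitals mark the motif. In H2-Aa (chr17:34287824-34287973, minus strand) it begins 51 bases before the start. In H2-Eb1 (chr17:34305717-34305866, plus strand) it begins 62 bases before, and in H2-Eb2 (chr17:34325525-34325674, plus strand) 103 bases before.
H2-Aa: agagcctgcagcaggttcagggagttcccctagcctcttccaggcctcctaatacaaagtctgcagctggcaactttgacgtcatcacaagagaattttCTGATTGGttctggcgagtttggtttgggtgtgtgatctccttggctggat
H2-Eb1: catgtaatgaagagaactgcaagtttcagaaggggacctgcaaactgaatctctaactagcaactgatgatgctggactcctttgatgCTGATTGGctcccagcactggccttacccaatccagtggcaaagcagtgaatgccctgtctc
H2-Eb2: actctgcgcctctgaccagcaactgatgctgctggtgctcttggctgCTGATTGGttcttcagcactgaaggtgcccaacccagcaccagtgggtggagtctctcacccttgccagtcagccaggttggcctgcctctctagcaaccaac

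MHC class I genes differed less. Of 21, 10 were higher in DCs (47.6% against 28.4% of all genes), 7 in macrophages (33.3% against 26.3%) and 4 were not called, with a median of -0.12. The peptide transporter Tap1 was at 428, 428 and 392 in macrophages and 1737, 2367 and 1819.5 in DCs (-2.23 ± 0.13, adjusted p = 1.77e-06), while its partner Tap2 was at 1087, 1084 and 1122 in macrophages and 1089, 1288 and 1171 in DCs, with overlapping groups. Nlrc5, the class I coactivator, was at 72.0, 36.4 and 57.5 in macrophages and 595, 559 and 425 in DCs (-3.27 ± 0.26, adjusted p = 1.40e-05). Cd1d1, which presents lipid antigen, was higher in macrophages, at 654, 651 and 645 in macrophages and 229.7, 244 and 188 in DCs (1.56 ± 0.13, adjusted p = 1.45e-05).

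Of 27 costimulatory genes, 18 were higher in DCs (66.7% against 28.4% of all genes), 3 in macrophages (11.1% against 26.3%) and 6 were not called (median -2.39), or 20, 4 and 3 without DC replicate 3. Cd40, the receptor through which T cells license DCs, was at 9.14, 4.42 and 6.51 in macrophages and 466, 392 and 609 in DCs (-6.02 ± 0.31, adjusted p = 1.10e-06). Slamf7, a signalling lymphocyte activation molecule, was at 70.8, 47.5 and 40.1 in macrophages and 4198, 4035 and 3305 in DCs (-6.19 ± 0.20, adjusted p = 1.07e-07). Tnfsf8, the ligand of CD30, was at 1.14, 0 and 4.34 in macrophages and 323, 293 and 285 in DCs (-7.06 ± 0.57, adjusted p = 1.47e-05). All DC libraries were far above all macrophage libraries, of which none exceeded 70.8. The 3 genes higher in macrophages were Cd274, Jag1 and Cd200r1. Cd274, which encodes the inhibitory ligand PD-L1, was at 5079, 5007 and 4824 in macrophages and 1234, 1063 and 1139 in DCs (2.12 ± 0.08, adjusted p = 1.73e-07). Jag1, a Notch ligand, was at 619, 619 and 559 in macrophages and 354, 268 and 186 in DCs (1.20 ± 0.21, adjusted p = 0.00153).

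Chemokines differed in both directions. Of 23, 14 were higher in DCs (60.9% against 28.4% of all genes), 6 in macrophages (26.1% against 26.3%) and 3 were not called (median -2.59). Among those higher in macrophages were Cxcl1 and Cxcl2, which draw neutrophils through CXCR2, and Ccl6. Cxcl2 was at 15221, 14994 and 11940 in macrophages and 3176, 2653 and 751 in DCs (2.92 ± 0.47, adjusted p = 0.00084), Cxcl1 at 2556, 2800.4 and 2182 in macrophages and 349, 265 and 98.3 in DCs (3.57 ± 0.40, adjusted p = 0.000101), and Ccl6 at 43347, 43579 and 41245 in macrophages and 5825, 5405 and 6305 in DCs (2.87 ± 0.08, adjusted p = 4.60e-08). DC replicate 3 was well below the other DC libraries for Cxcl1 and Cxcl2. On the DC side, Ccl17, a ligand of CCR4 on T cells, was at 54.8, 61.8 and 54.2 in macrophages and 2578, 2438 and 1505 in DCs (-5.19 ± 0.20, adjusted p = 2.35e-07). Ccl5 was at 18.3, 15.5 and 16.3 in macrophages and 1070.3, 858 and 953 in DCs (-5.76 ± 0.18, adjusted p = 7.85e-08), and Cxcl16, a membrane-bound chemokine, at 178, 142 and 123 in macrophages and 7530.3, 6598 and 3406 in DCs (-5.23 ± 0.28, adjusted p = 1.27e-06). Ccl3 and Cxcl10 were not called, and their groups overlapped.

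The receptors that steer cells also differed in both directions. Of 28 chemotactic receptors, 16 were higher in DCs (57.1% against 28.4% of all genes), 6 in macrophages (21.4% against 26.3%) and 6 were not called (median -2.43). Receptors higher in macrophages were those for formyl peptides, C5a (C5ar1), nucleotides (P2ry12 and P2ry14) and the ligands of CXCR2. Fpr1, the formyl peptide receptor, was at 6289, 6516 and 6297 in macrophages and 105, 49.7 and 76.6 in DCs (6.41 ± 0.23, adjusted p = 1.51e-07), Fpr2 at 1030.2, 1013 and 1038 in macrophages and 68.2, 40.2 and 121 in DCs (3.87 ± 0.33, adjusted p = 2.13e-05), and P2ry14, a receptor for UDP-glucose, at 842, 807 and 903 in macrophages and 106, 44.4 and 39.5 in DCs (3.87 ± 0.33, adjusted p = 2.09e-05). In DCs, Ccr7 was at 50.3, 58.5 and 59.6 in macrophages and 3670.4, 3692 and 2398 in DCs (-5.81 ± 0.18, adjusted p = 8.03e-08) and Gpr183, an oxysterol receptor that positions DCs in lymphoid tissue, at 51.4, 29.8 and 21.7 in macrophages and 1874, 1882 and 1643 in DCs (-5.76 ± 0.28, adjusted p = 7.03e-07). The list of DC migration and cytoskeleton genes counted 20 of 31 higher in DCs (64.5% against 28.4%), 4 in macrophages (12.9% against 26.3%) and 7 not called (median -0.46). Fscn1, the actin bundler fascin of migrating DCs, was at 24.0, 16.6 and 8.67 in macrophages and 829.8, 769.8 and 816 in DCs (-5.64 ± 0.33, adjusted p = 2.02e-06), and Marcks, a substrate of protein kinase C, at 78.8, 30.9 and 67.2 in macrophages and 4566, 4367 and 3978 in DCs (-6.27 ± 0.30, adjusted p = 7.03e-07). Cdc42ep3 was higher in macrophages, at 3099, 3144 and 3516 in macrophages and 382, 408 and 467 in DCs (2.96 ± 0.10, adjusted p = 1.20e-07).

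Lipid handling genes were mostly higher in alveolar macrophages than in lung CD11b DCs. Of 30 genes of lipid uptake and storage, 21 were higher in macrophages (70% against 26.3% of all genes), 3 in DCs (10% against 28.4%) and 6 were not called (median 1.13 against 0.02 over all genes), or 22, 5 and 3 without DC replicate 3. Fabp1, a fatty acid carrier best known from liver, was at 2416, 2783 and 2336 in macrophages and 23.8, 14.8 and 12.9 in DCs (7.15 ± 0.22, adjusted p = 8.46e-08). Cidec, a protein of large lipid droplets, was at 5121, 5044 and 5094 in macrophages and 67.2, 33.8 and 35.5 in DCs (6.85 ± 0.24, adjusted p = 1.27e-07). Olr1, a receptor for oxidized lipoprotein, was at 6504, 6441 and 5758 in macrophages and 133, 97.3 and 37.9 in DCs (6.28 ± 0.38, adjusted p = 2.75e-06). The macrophage libraries were far above all DC libraries in each of the 3 genes. Among the 3 genes higher in DCs were Acsl3 and Lipe. Lipe, hormone-sensitive lipase, was at 56.0, 56.3 and 58.5 in macrophages and 414, 437 and 410.3 in DCs (-2.86 ± 0.15, adjusted p = 1.04e-06).

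Genes of cholesterol efflux, many of them targets of the oxysterol receptor LXR, mostly followed: 12 of 20 were higher in macrophages (60% against 26.3% of all genes), 4 in DCs (20% against 28.4%) and 4 were not called (median 1.34). Abcg1, which exports cholesterol and whose loss is known to cause lipid-laden lung macrophages, was at 21206, 19594 and 19465 in macrophages and 1254, 956 and 1052 in DCs (4.21 ± 0.10, adjusted p = 3.35e-08). Nceh1, which frees cholesterol from its esters, was at 9975, 9350.4 and 9402 in macrophages and 715, 759 and 526 in DCs (3.86 ± 0.13, adjusted p = 1.21e-07). Apoc1 was at 83.4, 60.7 and 95.4 in macrophages and 3.25, 0 and 8.06 in DCs (4.56 ± 0.75, adjusted p = 0.00102). The apolipoproteins of one gene cluster did not move together: Apoe, the main cholesterol-accepting apolipoprotein of macrophages, was higher in DCs, at 1522, 1288 and 1486 in macrophages and 18444, 17437 and 25311 in DCs (-3.81 ± 0.14, adjusted p = 1.74e-07). Apoc2, the activator of lipoprotein lipase, was at 6.85, 3.31 and 8.67 in macrophages and 299, 281 and 669 in DCs (-5.80 ± 0.44, adjusted p = 9.59e-06), with the highest value in DC replicate 3 for both. Cyp27a1, the sterol 27-hydroxylase, was also higher in DCs, at 112, 106 and 77.0 in macrophages and 1997, 2144 and 1623 in DCs (-4.28 ± 0.17, adjusted p = 2.63e-07). Cholesterol synthesis genes showed smaller differences, with 7 of 23 higher in DCs (30.4%, near the 28.4% of all genes), 3 in macrophages (13% against 26.3%) and 13 not called (median -0.19). Srebf2, the transcription factor of that pathway, was at 513, 574 and 576 in macrophages and 1341, 1758 and 1516 in DCs (-1.46 ± 0.11, adjusted p = 1.19e-05). In fatty acid synthesis, the desaturase gene Fads1 was at 87.9, 56.3 and 102 in macrophages and 822, 881 and 484 in DCs (-3.13 ± 0.29, adjusted p = 2.93e-05), and 4 of 13 genes were higher in each cell type (30.8%, near the shares of all genes, 26.3% and 28.4%).

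Of the metabolic lists, fatty acid oxidation had the highest share of genes higher in macrophages. Of 38 mitochondrial and peroxisomal genes, 34 were higher in macrophages (89.5% against 26.3% of all genes), 1 in DCs and 3 were not called, with a median of 1.24, and the counts were the same without DC replicate 3. Acaa1b, a peroxisomal thiolase, was at 1554, 1559.7 and 1432 in macrophages and 18.4, 4.23 and 14.5 in DCs (7.03 ± 0.44, adjusted p = 3.03e-06). Abcd2, a peroxisomal importer of very long chain acyl-CoA, was at 3974, 3707 and 4002 in macrophages and 197, 319 and 198 in DCs (4.06 ± 0.18, adjusted p = 4.43e-07). The groups did not overlap for either gene. Pdk4, described above, belongs to this list as well.

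The central pathways downstream differed by less. Of 27 tricarboxylic acid cycle genes, 18 were higher in macrophages (66.7% against 26.3% of all genes), 1 (Fh1) in DCs (3.7% against 28.4%) and 8 were not called (median 0.33). Idh1, the cytosolic isocitrate dehydrogenase that makes NADPH, was at 5992, 6176 and 5869.8 in macrophages and 835, 787 and 959 in DCs (2.81 ± 0.09, adjusted p = 8.26e-08). Aco1, cytosolic aconitase and an iron sensor, was at 1525, 1795 and 1714 in macrophages and 612, 552 and 732 in DCs (1.41 ± 0.12, adjusted p = 1.94e-05). Fh1, fumarase, was at 453, 483 and 499.8 in macrophages and 990.2, 939 and 975 in DCs (-1.01 ± 0.09, adjusted p = 2.07e-05). Of 46 respiratory chain genes, 16 were higher in macrophages, none in DCs and 30 were not called (median 0.16), a called share of 34.8% that is below the 54.7% over all genes. The count higher in DCs was 0 by limma, also at an unadjusted p under 0.05, and 0 by edgeR and by DESeq2. Ndufs1 was at 1251, 1331 and 1325 in macrophages and 659, 687 and 609 in DCs (1.00 ± 0.09, adjusted p = 1.95e-05). Without DC replicate 3, 23 of these genes were higher in macrophages. Glycolysis showed no lean: 12 of 29 genes were higher in macrophages (41.4% against 26.3% of all genes), 11 in DCs (37.9% against 28.4%) and 6 were not called (median 0.06, which turned to -0.08 without DC replicate 3). Slc2a3, the high-affinity glucose transporter GLUT3, was at 18.3, 15.5 and 17.3 in macrophages and 900.2, 1018 and 543 in DCs (-5.46 ± 0.26, adjusted p = 6.46e-07), and the muscle enolase Eno3 at 61.7, 50.8 and 52.0 in macrophages and 1194, 1467 and 1941 in DCs (-4.76 ± 0.19, adjusted p = 2.57e-07), both higher in DCs. Slc16a1, a lactate and pyruvate transporter, was higher in macrophages, at 140.5, 166 and 163 in macrophages and 42.2, 44.4 and 38.7 in DCs (1.88 ± 0.20, adjusted p = 8.81e-05).

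**Figure D3:**
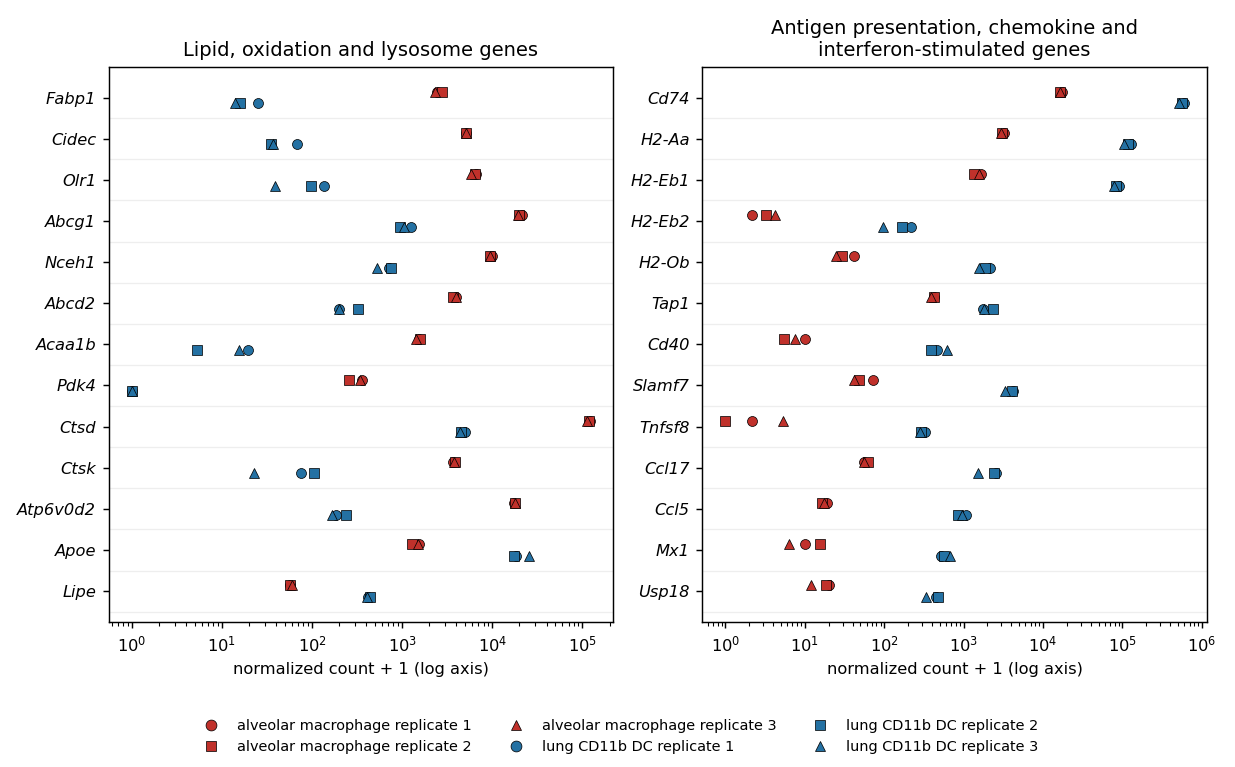
Normalized count + 1 (log axis) of 26 genes in each of the 6 wild-type libraries; red symbols are alveolar macrophages, blue symbols lung CD11b DCs, and the shape gives the replicate. Among the lipid, oxidation and lysosome genes Apoe and Lipe are higher in DCs, and in the right panel every gene is.

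Lysosomal genes were higher in macrophages in 44 of 56 cases (78.6% against 26.3% of all genes), with 7 higher in DCs and 5 not called (median 1.09), or 46, 7 and 3 without DC replicate 3. Ctsd, cathepsin D, an aspartic protease on chromosome 7 at 142375911 to 142388038, was at 121180, 118070 and 113170 in macrophages and 4945, 4547 and 4428 in DCs (4.66 ± 0.08, adjusted p = 9.99e-09). Per kilobase it ranked 3 in macrophages and 186 in DCs. Ctsk, cathepsin K, the collagen-degrading protease known from osteoclasts, was at 3688, 3863 and 3743 in macrophages and 73.7, 104 and 21.8 in DCs (6.07 ± 0.47, adjusted p = 1.16e-05). Atp6v0d2, a proton pump subunit shared with osteoclasts, was at 17509, 17983 and 17874 in macrophages and 183, 236 and 164 in DCs (6.52 ± 0.13, adjusted p = 1.43e-08). All 3 macrophage libraries were far above all DC libraries in each. The lipase Pla2g15, which degrades phospholipid in the lysosome, was at 5044, 5334 and 5353 in macrophages and 404, 494 and 410.3 in DCs (3.59 ± 0.10, adjusted p = 4.18e-08). Sort1, a sorting receptor of the same trafficking route, had the smallest unadjusted p of any gene and shared its adjusted p with Ctsd and others. It was at 10393, 10070 and 9997 in macrophages and 368, 331 and 354 in DCs (4.85 ± 0.07, adjusted p = 9.99e-09).

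Not every lysosomal gene leaned that way. Slc11a1, the phagosomal metal transporter NRAMP1, was higher in DCs, at 41.1, 41.9 and 32.5 in macrophages and 2012, 1904 and 2115 in DCs (-5.68 ± 0.14, adjusted p = 3.35e-08). Ctse, cathepsin E, was at 2.28, 0 and 0 in macrophages and 61.8, 45.5 and 58.8 in DCs (-5.23 ± 0.60, adjusted p = 0.000119). Psap, Npc2 and Man2b1 were abundant and not called. Man2b1, lysosomal α-mannosidase, was at 5796, 5694 and 5680.1 in macrophages and 5567, 5589 and 6042 in DCs, and its groups overlapped.

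Many lysosomal promoters carry the E-box TCACGTGA known as the CLEAR element, bound by TFEB, TFE3 and MITF. These letters were in 6 of 53 promoters of the lysosome list (11.3%) and in 1.82% of all promoters, and in 0.779% and 0.817% of promoters of genes over 4-fold higher in macrophages and in DCs. The C/EBP letters TTGCNNAA, searched on both strands, were in 7 of 24 promoters of the macrophage marker list (29.2%) and in 8.54% of all promoters. They were also in 19.0% of promoters of the conventional DC list, 18.9% of the lysosome list and 17.6% of the class II list. They were in 12.6% of promoters of genes over 4-fold higher in macrophages and in 8.91% of those over 4-fold higher in DCs. Shown are the 150 bases before the RefSeq start of Ctsd, with the CLEAR letters in capitals, and of Pparg and Ctsk, with the C/EBP letters in capitals, since these genes carry the lysosomal and macrophage results above. The motif begins 99 bases before the start in Ctsd (chr7:142387828-142387977, minus strand), 16 bases before in Pparg (chr6:115421916-115422065, plus strand) and 76 bases before in Ctsk (chr3:95499060-95499209, plus strand). The Pparg stretch lies inside the annotated gene, which spans 115360951 to 115490399 of chromosome 6 in GENCODE M21. The Ctsd stretch also lies inside its annotated gene, which spans 142375911 to 142388038 of chromosome 7. Only RefSeq starts with the letters in these 150 bases are shown, and which start the cells used was not tested. In all, 14 motifs were searched.
Ctsd: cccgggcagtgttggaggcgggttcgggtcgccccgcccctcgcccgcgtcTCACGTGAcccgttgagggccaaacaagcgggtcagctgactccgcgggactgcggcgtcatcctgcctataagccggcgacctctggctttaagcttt
Pparg: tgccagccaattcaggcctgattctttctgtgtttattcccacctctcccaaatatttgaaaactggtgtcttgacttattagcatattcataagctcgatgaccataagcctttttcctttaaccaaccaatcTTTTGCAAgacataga
Ctsk: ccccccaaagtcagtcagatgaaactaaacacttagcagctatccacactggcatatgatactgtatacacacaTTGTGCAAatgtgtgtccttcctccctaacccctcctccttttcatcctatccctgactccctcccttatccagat

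Secreted and membrane proteases were more often higher in DCs. Of 33 proteases and inhibitors, 19 were higher in DCs (57.6% against 28.4% of all genes), 10 in macrophages (30.3%, near the 26.3% of all genes) and 4 were not called (median -1.97). Slpi, an inhibitor of neutrophil elastase in airway fluid, was at 3131, 2899 and 3121 in macrophages and 83.4, 41.2 and 91.9 in DCs (5.46 ± 0.27, adjusted p = 7.50e-07). Mmp13, collagenase 3, was at 9.14, 2.21 and 0 in macrophages and 342, 319 and 154 in DCs (-6.33 ± 0.78, adjusted p = 0.000178), and Mmp8, the neutrophil collagenase, at 517, 607 and 565 in macrophages and 27.1, 10.6 and 35.5 in DCs (4.63 ± 0.39, adjusted p = 1.81e-05). The collagenases thus differed in opposite directions, Mmp8 higher in every macrophage library and Mmp13 in every DC library.

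Of 33 antioxidant genes, 19 were higher in macrophages (57.6% against 26.3% of all genes), 7 in DCs (21.2% against 28.4%) and 7 were not called (median 0.64). Gstm1, a glutathione transferase with close relatives among which reads may be shared, was at 3428, 3618 and 3297 in macrophages and 343, 306 and 422 in DCs (3.28 ± 0.12, adjusted p = 1.74e-07). Mgst1, its microsomal counterpart, was at 3164, 3249.6 and 3120.3 in macrophages and 124, 127 and 256 in DCs (4.31 ± 0.25, adjusted p = 2.15e-06). The extracellular superoxide dismutase Sod3 was higher in DCs, at 5.71, 0 and 0 in macrophages and 74.8, 78.2 and 104 in DCs (-5.51 ± 0.75, adjusted p = 0.000343). For iron, 7 of 17 genes were higher in macrophages (41.2% against 26.3%), 5 in DCs (29.4%, near the 28.4% of all genes) and 5 were not called (median -0.18). Ncoa4, which delivers ferritin to the lysosome, was at 2466, 2682 and 2485 in macrophages and 341, 287 and 372 in DCs (2.94 ± 0.11, adjusted p = 1.90e-07), and Slc40a1, the iron exporter ferroportin, at 192, 224 and 153 in macrophages and 40.1, 111 and 42.7 in DCs (1.68 ± 0.39, adjusted p = 0.00592). Cd163, the haemoglobin scavenger receptor, was higher in DCs, at 18.3, 15.5 and 8.67 in macrophages and 875, 867 and 557 in DCs (-5.69 ± 0.31, adjusted p = 1.47e-06), beside the other interstitial macrophage genes given above.

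Surface receptors for sugars and debris divided between the cell types. Of 30 C-type lectins, 14 were higher in DCs (46.7% against 28.4% of all genes), 11 in macrophages (36.7% against 26.3%) and 5 were not called (median -0.30, and 0.38 when only genes with a mean of 50 or more were kept). Clec4n, Dectin-2, which binds fungal mannan, was at 5109, 5253 and 5198 in macrophages and 569.8, 521 and 484 in DCs (3.31 ± 0.08, adjusted p = 3.35e-08). Mrc1, the mannose receptor, was at 16683, 16892 and 15916 in macrophages and 3739, 3456 and 2429.7 in DCs (2.39 ± 0.15, adjusted p = 2.88e-06). Ly75, DEC-205, usually described in DCs, was higher in macrophages, at 3852, 3931 and 3762 in macrophages and 362, 384 and 146 in DCs (3.81 ± 0.32, adjusted p = 1.81e-05). On the DC side stood Cd209a and Mgl2, above, with Clec10a at 16.0, 8.83 and 9.76 in macrophages and 925, 891 and 1038 in DCs (-6.29 ± 0.25, adjusted p = 2.33e-07) and Cd209c at 6.85, 3.31 and 2.17 in macrophages and 388, 444 and 363 in DCs (-6.39 ± 0.37, adjusted p = 2.11e-06). Reads of Mgl2 and Clec10a, and of the Cd209 genes, may be shared between copies. Of 32 scavenger and efferocytosis genes, 14 were higher in DCs (43.8% against 28.4%), 12 in macrophages (37.5% against 26.3%) and 6 were not called (median -0.08). Pros1, a bridge from phosphatidylserine to MERTK, was at 7909, 7577 and 7730.3 in macrophages and 1403, 1484 and 1069 in DCs (2.57 ± 0.12, adjusted p = 6.08e-07), and Itgb3, the integrin chain that binds the MFG-E8 bridge, at 0, 0 and 4.34 in macrophages and 99.7, 85.6 and 148 in DCs (-5.96 ± 0.70, adjusted p = 0.000134).

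Complement genes fell on both sides. The list counted 10 of 23 higher in DCs (43.5% against 28.4% of all genes), 9 in macrophages (39.1% against 26.3%) and 4 not called (median 0.12). The 3 chains of C1q were all higher in DCs: C1qa, on chromosome 4 at 136895917 to 136898803, was at 18.3, 12.1 and 19.5 in macrophages and 1522, 1542 and 1112 in DCs (-6.31 ± 0.23, adjusted p = 1.58e-07), and C1qc at 44.5, 21.0 and 30.4 in macrophages and 2589, 2532 and 2225 in DCs (-6.28 ± 0.24, adjusted p = 2.30e-07). C1ra, the protease that C1q activates, was higher in macrophages, at 447, 391 and 449.9 in macrophages and 27.1, 15.9 and 6.45 in DCs (4.82 ± 0.44, adjusted p = 2.82e-05). Cfb, factor B of the alternative pathway, was at 1995, 1960.4 and 1912 in macrophages and 125, 173 and 151 in DCs (3.71 ± 0.13, adjusted p = 1.36e-07), and the C5a receptor C5ar2 at 367, 398 and 336 in macrophages and 60.7, 25.4 and 31.4 in DCs (3.29 ± 0.31, adjusted p = 3.53e-05). The recognition unit and its protease therefore had opposite directions, in all 3 libraries of each type.

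Innate sensors fell on both sides. Of 40 genes, 16 were higher in DCs (40% against 28.4% of all genes), 13 in macrophages (32.5% against 26.3%) and 11 were not called (median -0.20). Tlr5, the flagellin receptor, was at 296, 340.0 and 338 in macrophages and 20.6, 26.4 and 32.2 in DCs (3.59 ± 0.23, adjusted p = 3.35e-06), and Tlr8 at 1462, 1405 and 1442 in macrophages and 187, 178 and 201 in DCs (2.92 ± 0.10, adjusted p = 1.02e-07). Mavs, the adaptor of the RNA helicase sensors, was at 1677, 1901 and 1608 in macrophages and 327, 318 and 418 in DCs (2.29 ± 0.13, adjusted p = 1.59e-06). These were higher in macrophages. Tlr1, a partner of TLR2 for lipopeptides, was higher in DCs, at 12.6, 2.21 and 8.67 in macrophages and 328, 441 and 435 in DCs (-5.73 ± 0.50, adjusted p = 2.31e-05), as was Tlr11, a receptor for profilin, at 9.14, 4.42 and 4.34 in macrophages and 288, 198 and 220.1 in DCs (-5.13 ± 0.35, adjusted p = 5.63e-06). Casp1, Nlrp3 and Cd14 were not called, and their groups overlapped.

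Interferon-stimulated genes had one direction. Of 30, 25 were higher in DCs (83.3% against 28.4% of all genes), none in macrophages and 5 were not called (median -2.49), and without DC replicate 3 the count was 26. The count higher in macrophages was 0 by limma, also at an unadjusted p under 0.05, and 0 by edgeR and by DESeq2. Mx1, a GTPase that blocks influenza virus, was at 9.14, 14.3 and 5.42 in macrophages and 521, 559 and 683 in DCs (-5.87 ± 0.33, adjusted p = 1.79e-06). Usp18, which removes ISG15 and damps interferon signalling, was at 19.4, 17.7 and 10.8 in macrophages and 448, 480.0 and 331 in DCs (-4.65 ± 0.28, adjusted p = 2.57e-06). Oas2, which makes 2-5A when double-stranded RNA is present, was at 10.3, 8.83 and 14.1 in macrophages and 231, 244 and 289 in DCs (-4.42 ± 0.27, adjusted p = 2.74e-06). No macrophage library exceeded 20 in these 3 genes. Ifih1, an RNA sensor that also responds to interferon, was not called. The letters GAAAC and GAAA with any 1 base between them, a core of the interferon-stimulated response element searched on both strands, were in 8 of 29 promoters of this list (27.6%) and in 0.752% of all promoters, and in 0.13% and 1.19% of promoters of genes over 4-fold higher in macrophages and in DCs.

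Of 38 cytokine genes, 19 were higher in macrophages (50% against 26.3% of all genes), 12 in DCs (31.6%, near the 28.4% of all genes) and 7 were not called (median 0.26), or 19, 15 and 4 without DC replicate 3. Ereg, epiregulin, an EGF receptor ligand, was at 324, 342 and 259 in macrophages and 8.67, 0 and 0 in DCs (7.17 ± 0.82, adjusted p = 0.00012). Tgfb2 was at 111, 75.1 and 69.4 in macrophages and 0, 1.06 and 2.42 in DCs (5.46 ± 0.55, adjusted p = 5.45e-05), and Gdf15, a stress-induced TGF-β relative, at 1948, 2317 and 1747 in macrophages and 130, 84.6 and 72.6 in DCs (4.41 ± 0.21, adjusted p = 7.27e-07). No DC library reached the macrophage level of any of them. Ebi3, a subunit of IL-27 and IL-35, was higher in DCs, at 24.0, 25.4 and 26.0 in macrophages and 1170, 957 and 1289 in DCs (-5.44 ± 0.17, adjusted p = 7.70e-08), and so was Pdgfb, at 12.6, 13.2 and 11.9 in macrophages and 268, 463 and 470.0 in DCs (-4.84 ± 0.28, adjusted p = 1.94e-06). Tgfb1, known to be required for alveolar macrophage upkeep, was not called, with 2368, 2267 and 2162 in macrophages and 2128, 2063 and 2509 in DCs. Of 46 cytokine receptors, 23 were higher in DCs (50% against 28.4%), 15 in macrophages (32.6% against 26.3%) and 8 were not called (median -0.49). Il21r was at 5.71, 2.21 and 5.42 in macrophages and 699.8, 677 and 552 in DCs (-6.95 ± 0.34, adjusted p = 7.22e-07) and Il18r1 at 2.28, 5.52 and 0 in macrophages and 217, 199.8 and 118 in DCs (-5.97 ± 0.67, adjusted p = 0.0001), both also known in lymphocytes. Csf1r, the M-CSF receptor, was present in both and higher in DCs, at 3735, 3636 and 3634 in macrophages and 12159, 11266 and 12185 in DCs (-1.69 ± 0.07, adjusted p = 2.31e-07). Bmpr1a, a receptor for bone morphogenetic proteins, was higher in macrophages, at 129, 118 and 121 in macrophages and 19.5, 7.40 and 1.61 in DCs (4.01 ± 0.66, adjusted p = 0.00103).

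Enzymes of lipid mediators were also split. Of 25 genes, 11 were higher in DCs (44% against 28.4% of all genes), 9 in macrophages (36% against 26.3%) and 5 were not called (median -0.02). Ltc4s, which makes leukotriene C4, was at 1655, 1476 and 1485 in macrophages and 35.8, 36.0 and 46.0 in DCs (5.27 ± 0.15, adjusted p = 5.08e-08), and Ptges, the terminal prostaglandin E synthase, at 159.9, 103 and 104 in macrophages and 8.67, 1.06 and 4.84 in DCs (4.63 ± 0.57, adjusted p = 0.000189). Ptgs2, cyclooxygenase 2, which acts upstream of Ptges, was higher in DCs, at 43.4, 55.2 and 42.3 in macrophages and 3754, 2799.9 and 1131 in DCs (-5.58 ± 0.39, adjusted p = 5.72e-06). The shared leukotriene genes Alox5ap and Lta4h were not called. Of 25 genes grouped as alternative activation, 10 were higher in macrophages (40% against 26.3%), 9 in DCs (36% against 28.4%) and 6 were not called. Chi3l3 and Mrc1 were higher in macrophages, and Ccl17, Irf4 and Mgl2 in DCs, as given above.

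**Figure D4:**
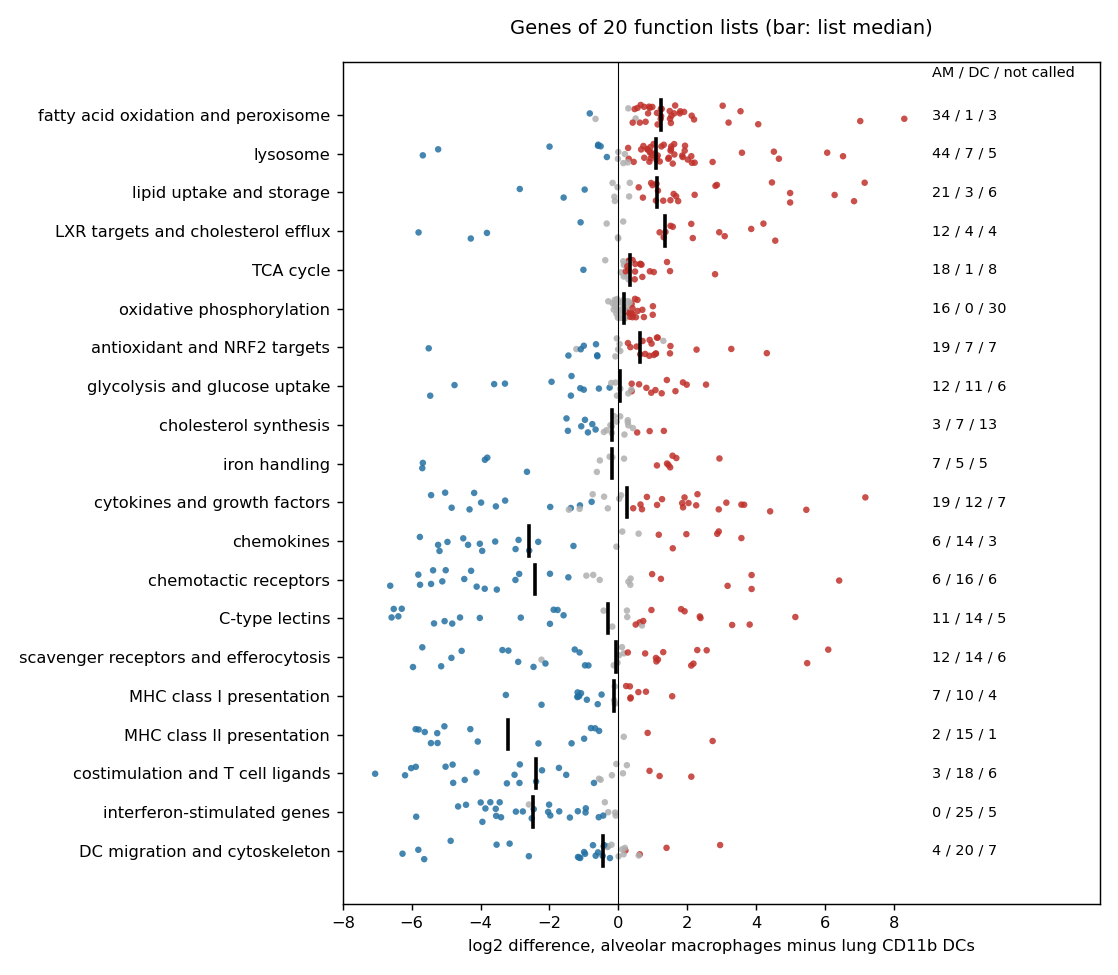
Log2 difference, macrophage minus DC, of each tested gene in 20 function lists (points; red called higher in macrophages, blue called higher in DCs, grey not called), with list medians as black bars and the counts of each call at the right. Fatty acid oxidation and lysosome genes lie mostly right of 0, and MHC class II, costimulation and interferon-stimulated genes mostly left of it.

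Of 75 myeloid transcription factors, 42 were higher in DCs (56% against 28.4% of all genes), 18 in macrophages (24%, near the 26.3% of all genes) and 15 were not called (median -0.96). Tfec, a relative of MITF and TFEB, was at 820.0, 891 and 915 in macrophages and 11.9, 37.0 and 18.5 in DCs (5.36 ± 0.35, adjusted p = 4.26e-06), and Tcf7l2, an effector of Wnt signalling, at 4246, 4178 and 4224 in macrophages and 445, 288 and 603 in DCs (3.30 ± 0.23, adjusted p = 5.31e-06). On the DC side, Runx3 was at 13.7, 25.4 and 19.5 in macrophages and 1343, 1240.3 and 1213 in DCs (-5.99 ± 0.23, adjusted p = 1.89e-07). Hes1, a target of Notch, was at 6.85, 3.31 and 0 in macrophages and 341, 259 and 706 in DCs (-6.94 ± 0.73, adjusted p = 7.35e-05), with the highest value in DC replicate 3. Stat4, which relays IL-12 and is also known from T and NK cells, was at 4.57, 4.42 and 1.08 in macrophages and 319.6, 273 and 267 in DCs (-6.17 ± 0.43, adjusted p = 5.94e-06), and Spib, known from plasmacytoid DCs and B cells, at 1.14, 0 and 0 in macrophages and 99.7, 159 and 115 in DCs (-6.58 ± 0.49, adjusted p = 8.56e-06). The macrophage libraries were at single counts for the last 3 genes. Irf8, the factor of cDC1, and Zeb2, which acts in cDC2 and macrophages, were not called: Irf8 was at 1256, 1263 and 1299 in macrophages and 1159, 1356 and 1063 in DCs, and Zeb2 at 2624, 2252 and 2245 in macrophages and 2444, 2281 and 1868 in DCs, both with overlapping groups.

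Of 36 adhesion genes, 18 were higher in DCs (50% against 28.4% of all genes), 11 in macrophages (30.6%, near the 26.3% of all genes) and 7 were not called (median -0.39). Itgb7, the β chain that pairs with α4 and αE, was at 158, 100.5 and 104 in macrophages and 8050.3, 7606 and 7937 in DCs (-6.04 ± 0.16, adjusted p = 4.28e-08). Cd9, a tetraspanin, was among the most abundant macrophage transcripts, ranking 7 per kilobase, at 55047, 55499 and 56479 in macrophages and 5925, 5454 and 4976 in DCs (3.36 ± 0.08, adjusted p = 3.14e-08). Epcam and Cdh1, epithelial adhesion molecules, were higher in macrophages: Epcam was at 1169.5, 1249.5 and 1324 in macrophages and 272, 348 and 337 in DCs (1.97 ± 0.12, adjusted p = 2.57e-06), and Cdh1, E-cadherin, at 1367, 1228 and 1438 in macrophages and 681, 579 and 302 in DCs (1.44 ± 0.26, adjusted p = 0.00181). In the same macrophage libraries Sftpc was at most 69.5 and Krt8 and Krt18, keratins of simple epithelium, were below the filter.

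Of 42 cell cycle genes, 17 were higher in macrophages (40.5% against 26.3% of all genes), 6 in DCs (14.3% against 28.4%) and 19 were not called (median 0.37 against 0.02). Mki67, a proliferation marker, was at 1994, 1906 and 1933 in macrophages and 2019, 1753 and 1832 in DCs, and Top2a at 964, 1062 and 951 in macrophages and 1127, 1202 and 796 in DCs, both with overlapping groups. The D-type cyclin Ccnd1 was higher in DCs, at 28.6, 33.1 and 41.2 in macrophages and 1181, 1179 and 1763 in DCs (-5.27 ± 0.21, adjusted p = 2.63e-07), while its kinase Cdk6 was higher in macrophages, at 365, 385 and 437 in macrophages and 109, 154 and 79.8 in DCs (1.83 ± 0.23, adjusted p = 0.000235). Among BCL2 relatives, 8 of 18 were higher in macrophages (44.4% against 26.3%), 6 in DCs (33.3% against 28.4%) and 4 were not called (median -0.04). Bcl2 was at 6.85, 5.52 and 8.67 in macrophages and 888, 1024 and 1011 in DCs (-6.94 ± 0.22, adjusted p = 9.76e-08), and its relative Bcl2l1, which encodes BCL-XL, differed the other way, at 649, 574 and 661 in macrophages and 304, 316 and 277 in DCs (1.07 ± 0.11, adjusted p = 6.76e-05). Mcl1, another survival member, was not called, with 13598, 13204 and 12666 in macrophages and 15601, 12503 and 11908 in DCs. Pmaip1, the death inducer NOXA, was higher in DCs, at 548, 621 and 472 in macrophages and 10037, 7976 and 4635 in DCs (-3.72 ± 0.25, adjusted p = 5.00e-06).

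Of 48 mTOR pathway genes, 15 were higher in DCs, 13 in macrophages and 20 were not called (median -0.05), near the background. Sgk1, a kinase downstream of mTORC2, was abundant in macrophages, at 43386, 41442 and 39063 in macrophages and 3922, 2986 and 2337 in DCs (3.77 ± 0.16, adjusted p = 4.36e-07). Ddit4, which encodes REDD1, an inhibitor of mTORC1, was at 5.71, 1.104 and 5.42 in macrophages and 210.2, 350.0 and 156 in DCs (-5.66 ± 0.53, adjusted p = 3.46e-05) and was higher in DCs. Immediate-early and heat-shock genes, which can rise while cells are dissociated, were higher in DCs in 14 of 25 cases (56% against 28.4% of all genes), in macrophages in 1 (Egr2, 4% against 26.3%) and not called in 10 (median -0.56). Without DC replicate 3 the DC count was 18. Atf3 was at 3170.5, 3142 and 2612 in macrophages and 17496, 14756 and 12249 in DCs (-2.31 ± 0.14, adjusted p = 2.18e-06), while Fos was at 22522, 23073 and 20880 in macrophages and 22666, 19955 and 19531 in DCs and Jun at 13427, 16938 and 13516 in macrophages and 15293, 14193 and 15114 in DCs, with overlapping groups. The part of handling in the cytokine, chemokine and immediate-early differences was not tested.

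Among the 500 most abundant genes, those nearest to a difference of 0 were Mycbp2, Arf4, Egr1, Man2b1, Tram1 and Arhgap30. Arf4, a small GTPase of the Golgi, was at 4359.5, 4065 and 3807 in macrophages and 4381, 4221 and 3641 in DCs. Tram1, part of the translocon of the endoplasmic reticulum, was at 3156, 3048 and 3402 in macrophages and 3163, 3432 and 3029.5 in DCs. The libraries of the cell types were interleaved for these genes.

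The KO libraries gave a second measurement of the same cell types in mice labelled as lacking mTOR in antigen-presenting cells. Mtor in them was at 71.7, 91.4 and 104 in macrophages and 297, 316 and 169 in DCs, lower than in wild type in every KO library. KO macrophage libraries held Y-linked sums of 659.5 to 2136 and 1 KO DC library a sum of 1318, which marks male cells in them. The wild-type and KO comparisons therefore differ in sex as well as genotype, and these cannot be told apart. The other KO DC libraries had a Y-linked sum of at most 1.349, so within KO sex also goes partly with cell type. The libraries with Y-linked reads held Xist too, at 1486.6, 2293.1 and 571.86 in macrophages and 1450.4 in the DC library. Whether cells of both sexes were pooled was not tested. Of 12098 genes, 4501 were called between the KO cell types (37.2%). Of the 6617 genes called in wild type, 5825 (88%) had the same sign in KO, 3570 (54%) were called in the same direction and 100 (1.51%) in the opposite one. Of the 2122 called with over 4-fold differences, 1979 (93.3%) had the same sign and 1537 (72.4%) were called the same way. Across genes, the wild-type and KO differences had a Pearson correlation of 0.814, given as a description since genes are not independent.

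Lists repeated in KO to unequal degrees, against 54% of all called genes that were called in the same direction. All 29 macrophage markers and all 17 conventional DC markers had the same sign in KO, and 26 and 17 of them were called in the same direction. Called in the same direction as in wild type were 16 of 18 tested class II genes and 29 of 38 tested fatty acid oxidation genes. So were 42 of 56 tested lysosomal genes and 25 of 30 tested interferon-stimulated genes. Genes not called in wild type could not count, and these 4 lists held 1, 3, 5 and 5 of them. Counted out of the genes called in wild type only, fewer than 54% repeated among respiratory chain genes (2 of 16) and cell cycle genes (9 of 23). Tricarboxylic acid cycle genes (11 of 19) were near that share. Of the genes over 4-fold in wild type, 72.4% were called in the same direction, and the lists were not matched for the size of their differences. Marco had a larger difference in KO (10.03 against 6.10), with 3242, 3511 and 3396 in macrophages and 1.94, 1.64 and 3.37 in DCs. Lepr also had a larger one (10.47 against 8.31). Itgam had a smaller one (-2.06 against -5.95), with 1063, 1492 and 1777 in macrophages and 6445, 5077 and 6230.1 in DCs. These changes between the genotypes were not tested. Clec4n, called higher in macrophages in wild type, was not called in KO and its groups overlapped there (-0.01 against 3.31), and the same was true of Abca6, a lipid transporter relative called higher in DCs in wild type (1.01 against -7.05). Cxcl10 was not called in wild type (0.11) and was higher in DCs in KO (-4.18), at 298, 99.5 and 79.5 in macrophages and 1938, 3258 and 2291 in DCs. Fn1, fibronectin, was higher in wild-type macrophages, at 18757, 15916 and 19160 in macrophages and 2842, 4154 and 2089 in DCs (2.62 ± 0.22, adjusted p = 1.61e-05), and higher in KO DCs, at 1949, 3897 and 5647 in macrophages and 12644, 9251 and 11492 in DCs (-1.66).

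**Figure D5:**
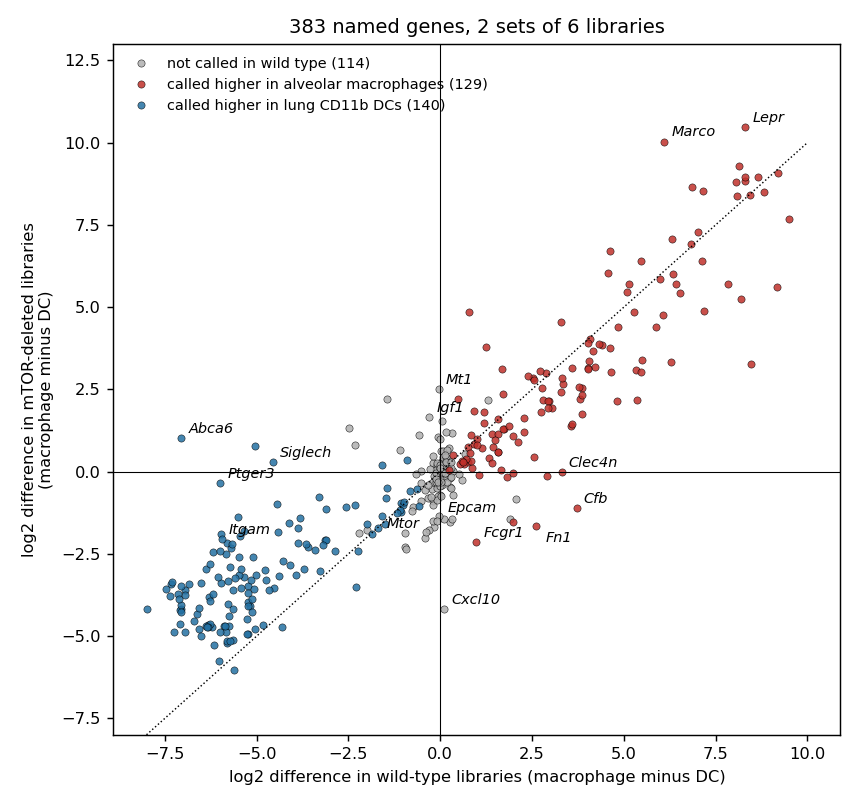
Log2 difference, macrophage minus DC, of 383 named genes in wild-type libraries (x) and in mTOR-deleted libraries (y), 3 libraries of each cell type and genotype; colours give the wild-type call and the dotted line marks equal differences. Most points lie in the lower left and upper right quadrants, and Fn1, Epcam, Fcgr1 and Cfb lie in the lower right one.

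Levels in the other wild-type cells of the series, which share no reads with these libraries but were sorted and labelled differently, are given side by side and without a test. The spleen groups hold 2 libraries each, with a Y-linked sum of at most 0.8565. The inflammatory libraries had Y-linked sums of 1420 to 2523, which marks male cells in them. Their levels therefore differ in sex as well as in cell type and dust-mite treatment, and these cannot be told apart. In spleen CD8a DCs, spleen CD11b DCs and dust-mite inflammatory lung DCs, Car4 ranged over 0, 1.69 to 3.59 and 2937 to 12601. Siglec5 ranged over 1.01 to 12.0, 4.49 to 11.8 and 357 to 708, and Pparg over 139.6 to 279.8, 87.9 to 101 and 1117 to 1462. Ctsd ranged over 2568 to 4527, 1181 to 1719 and 119340 to 180540, so the libraries labelled inflammatory lung DC were at or above the macrophage level of that protease and the steady-state DCs were far below it. Chi3l3 ranged over 7.10 to 10.3, 31.3 to 38.6 and 784490 to 1136000, and in the inflammatory cells every library was above every alveolar macrophage library. Atp6v0d2 ranged over 0, 1.79 to 5.08 and 15172 to 19555, and Abcd2 over 115.63 to 160.16, 87.2 to 127.41 and 3249 to 3511. Abcg1 ranged over 1094.6 to 1573, 715.1 to 778.69 and 4839 to 5918, and Acaa1b over 0 to 0.8565, 0.8464 to 1.79 and 6.90 to 38.2. Of DC genes, H2-Ab1 ranged over 152310 to 165890, 139860 to 152580 and 66821 to 76011, and Flt3 over 7181 to 7386, 4682 to 5700.1 and 104 to 170.1. Cd209a ranged over 719 to 1559.7, 4802 to 5965 and 445 to 582, all below the lung CD11b DC libraries, and Ccr7 over 1541 to 2234, 2162 to 2850.5 and 252 to 319.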

How the data were processed

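RNA from FACS-purified cells was extracted with a column kit and made into libraries with Clontech cDNA synthesis and Nextera XT, per the labels' protocols. The submitters' processing notes name STAR 2.3.1s, HTSeq, DESeq2 1.10.1 and the mm10 build; the HTSeq strand and multi-mapping settings and the annotation are not given in the sources used here, so genes with near-identical copies or antisense partners are uncertain. The authors deposited a signal, reads per gene divided by each library's DESeq2 size factor; from the values, 100% came out as whole reads within 1e-06 once multiplied by a size factor. The design had allowed for either reads or normalized values, so limma stayed the main test.

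Here 12098 of 23420 symbols were tested, those with a normalized count of at least 10 in at least 2 of the 6 libraries, on log2(normalized count + 1). The tests were limma 3.58.1 in R 4.3.3 (trended empirical Bayes, Benjamini-Hochberg adjusted p under 0.05, and treat against 2-fold) on the 6 wild-type libraries, and the same for 6 KO libraries. The ± values are moderated standard errors with 3 libraries in each group. The steps were tested on simulated data. Whole reads were also tested with edgeR 4.0.16 and DESeq2 1.42.0. Other alternatives changed the added constant, filter, scaling, weights, trend, libraries fitted and each library in turn. Levels between genes were compared per kilobase of merged GENCODE M21 exons; promoters are RefSeq's, on GRCm38.p6.

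The members, marker lists and function lists were chosen with earlier results of these data known. Values are given for the 15 largest called differences in each direction without overlap and with a mean of at least 100, the 3 largest called differences each way and up to 3 abundant uncalled genes of every list, a set of identity genes, genes at 0 in a group, the 8 smallest adjusted p-values and the 6 most similar of the 500 most abundant genes. The H2-Aa promoter was shown after its values were seen. Plet1, Trac, Ighm, Ly6g, Cxcl15, Spi1 and Ptgdr2 were not analysed here. Some named items are not reported here.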

Additional observations from a re-analysis of the deposited data

Results flagged for a closer look

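In 6 of 383 named genes every wild-type macrophage library lay on one side of every wild-type DC library and the KO libraries lay the opposite way. Groups did not overlap in wild type for 63.5% of all 12098 genes. How many of all genes lay opposite ways was not counted, so 6 cannot be set against a background. The difference between the genotypes was not tested for any of them. Fn1, which encodes fibronectin, had a log2 difference, macrophage minus DC, of 2.62 in wild type and -1.66 in KO. Epcam, an epithelial adhesion molecule also known in antigen-presenting cells, had 1.97 and -1.54, with KO values of 137, 163 and 170 in macrophages against 462, 539 and 382 in DCs. Fcgr1, the high-affinity receptor for IgG, had 0.973 and -2.14. Its wild-type values were 450, 474 and 400.1 in macrophages and 206, 144 and 378 in DCs, so DC replicate 3 was near the macrophages, and its adjusted p ranged from 7.59e-05 to 0.0842 over the alternatives. Ccr1, a chemokine receptor, had 0.357 and -0.696, Hmgcs1, an early enzyme of cholesterol synthesis, 0.274 and -0.457, and Itgb1, an integrin chain, -0.0933 and 0.27. Ccr1, Hmgcs1 and Itgb1 were not called in wild type.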

How the results depend on the processing

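The count of genes that differed in wild type (6617) ranged from 5430 to 7559 with each library left out, and from 5538 to 7385 under the other alternatives, with 6563 by edgeR and 6541 by DESeq2. The count beyond 2-fold (2294) ranged from 1971 to 2583 and from 1663 to 2610, and the KO count (4501) from 3162 to 4648 and from 3954 to 5816. Scaling to equal totals gave 2912 genes higher in macrophages and 3619 higher in DCs, and the median of all genes, 0.0154, became -0.0382 with equal totals and 0.0341 with TMM scaling. Of 269 called named genes, 12 lost the call under at least 1 alternative (Bak1, Cdkn2c, Csf2ra, Cxcr2, Fbp1, Fcgr1, Pfkfb1, Scd1, Sftpa1, Sftpc, Vwf and Xist) and 0 turned. The median of the glycolysis list (0.06) turned to -0.06587 with sample weights and to -0.08208 without DC replicate 3, and was -0.02058 without macrophage replicate 1 and at most 0.1457 with another library left out. That of the C-type lectins (-0.30) turned to 0.3813 when genes with a mean under 50 were left out; the cause was not tested. Without DC replicate 3 the neutrophil list had 5 in place of 2 genes higher in macrophages, and 38 more named genes were called, among them Psap, Cd14 and Icam1. Leaving out a library leaves 2 in its group, which are assumed to vary like the other group. No paired analysis was possible because the labels number the libraries through the whole series and give the groups no shared replicate numbers. Genes with few reads set the limit of depth: a fold against a group at 0 is given as a bound.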
